A study of Mus musculus with 4 samples.

Results

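Slc17a6, Slc17a7, Slc17a8, Slc32a1, Gad1 and Gad2 are the genes by which a neuron is usually called glutamatergic or GABAergic, and they were followed here by symbol as 6 of the 33696 genes in the count matrices. The question was how far the GABA-side and glutamate-side genes were detected in the same nuclei of the mouse hypothalamus, in which cells, and whether their levels on the other side differed with imidazole propionate (ImP), a histidine-derived metabolite of gut bacteria. Single-nucleus RNA-seq was run on wild-type C57BL/6J mice, called conventional in the design text and SPF in the sample titles, which also carry the word Baseline. ImP was delivered at 350 µg per day into the peritoneum by osmotic minipump for 2 weeks (libraries ImP 3 and ImP 4), and the other mice received the vehicle, water with 1% DMSO, for the same time (libraries vehicle 1 and vehicle 2). The labels do not say whether the libraries are separate animals, so every p-value below measures the spread between 2 and 2 libraries, which may be technical.

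Glutamatergic neurons load glutamate into synaptic vesicles through a vesicular transporter encoded by Slc17a6, Slc17a7 or Slc17a8. GABAergic neurons make GABA from glutamate with the glutamate decarboxylases encoded by Gad1 and Gad2, and load it through the vesicular GABA transporter encoded by Slc32a1. In the hypothalamus Slc17a6 is the main vesicular glutamate transporter, Slc17a7 is known mostly from cortex, and Slc17a8 from small populations that often release a second transmitter.

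The start regions of the 4 genes on which the results turn are shown because the 3 GABA-side genes varied together, and opposite to Slc17a6, over clusters of Snhg11 nuclei, as described further on. Each sequence is the 250 bases upstream of an annotated start, 5′ to 3′ on the gene's strand, taken from RefSeq on GRCm38.p6. The count matrices were made on GRCm39, so these coordinates apply to the RefSeq table. Slc17a6 has 2 annotated starts there, at chr7:51621580-51621829 and chr7:51624387-51624636. The others lie at chr2:158610508-158610757 (Slc32a1), chr2:70561879-70562128 (Gad1) and chr2:22622077-22622326 (Gad2), and all of these windows are on the plus strand. Capitals mark the one match found, the homeodomain core TAATTA.
Slc17a6 first start: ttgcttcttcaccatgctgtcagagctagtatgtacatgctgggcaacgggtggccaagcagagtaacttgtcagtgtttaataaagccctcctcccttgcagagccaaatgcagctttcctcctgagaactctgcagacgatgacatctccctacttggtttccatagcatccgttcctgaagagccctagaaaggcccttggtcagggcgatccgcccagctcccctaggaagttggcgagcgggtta
Slc17a6 second start: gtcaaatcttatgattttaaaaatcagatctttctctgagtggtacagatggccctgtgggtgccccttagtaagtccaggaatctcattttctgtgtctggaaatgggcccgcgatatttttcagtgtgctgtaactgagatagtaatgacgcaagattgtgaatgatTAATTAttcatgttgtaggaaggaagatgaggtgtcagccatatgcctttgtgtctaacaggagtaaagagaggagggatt
Slc32a1: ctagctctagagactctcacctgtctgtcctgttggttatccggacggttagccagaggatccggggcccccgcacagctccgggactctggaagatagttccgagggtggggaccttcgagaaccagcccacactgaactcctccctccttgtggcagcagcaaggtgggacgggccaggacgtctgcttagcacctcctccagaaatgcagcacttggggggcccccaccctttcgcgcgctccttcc
Gad1: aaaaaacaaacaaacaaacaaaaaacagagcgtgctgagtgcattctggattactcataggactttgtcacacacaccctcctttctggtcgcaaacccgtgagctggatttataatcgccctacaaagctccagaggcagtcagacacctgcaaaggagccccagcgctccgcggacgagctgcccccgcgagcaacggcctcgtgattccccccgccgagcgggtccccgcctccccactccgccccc
Gad2: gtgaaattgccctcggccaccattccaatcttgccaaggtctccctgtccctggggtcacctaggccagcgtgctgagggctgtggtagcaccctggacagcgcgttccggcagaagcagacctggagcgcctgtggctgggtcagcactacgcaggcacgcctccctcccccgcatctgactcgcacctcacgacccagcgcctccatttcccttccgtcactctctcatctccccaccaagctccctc
The 3 GABA-side windows were GC-rich, with 62.4% G and C for Slc32a1, 58% for Gad1 and 64% for Gad2, against a median of 52.4% over all 32851 windows. The 2 Slc17a6 windows held 53.2% and 41.2%. On both strands, TAATTA occurred in 4.84% of all windows, the E-box CAGCTG in 13% and the cAMP response element TGACGTCA in 1.546%. The windows printed here held neither the E-box nor the cAMP response element.

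The 4 matrices held 11255 to 16348 barcodes and 48060194 to 51945297 unique molecular identifiers (UMIs) each, and pairs of libraries shared 39 to 76 barcodes. After filters on genes, mitochondrial UMIs and doublet scores, 9934 to 13668 nuclei were kept per library. Neurons were taken as kept nuclei with 3 or more UMIs of Snhg11, a long non-coding RNA abundant in neurons, which gave 9865 and 10616 nuclei in ImP and 7618 and 9066 in vehicle libraries. Their median depth was lower with ImP, at 3287 and 3194 UMIs, against 4365 and 3653.5 UMIs in vehicle libraries. At least 1 UMI of Rbfox3, a nuclear protein of mature neurons, was found in 36.3% to 47.1% of these nuclei, and in 1.44% to 2.42% of the others. The gate also took in nuclei near its limit. Those with 3 to 9 Snhg11 UMIs were 14.8% and 19.4% of Snhg11 nuclei in ImP and 8.83% and 13.3% in vehicle libraries, and 15.6% to 23.3% of them held 10 or more UMIs of an oligodendrocyte list. In the library ImP 4, pituitary genes stood apart: Gh, growth hormone, averaged 4.07 to 4.30 UMIs per nucleus in the 2 sides and the 2 glial classes defined below, against 0.162 or less in the other libraries.

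The Snhg11 nuclei fell into 43 clusters when grouped without the 6 genes. A cluster whose average over Slc32a1, Gad1 and Gad2 was over 2 times the sum over the Slc17a genes is called a GABA-gene cluster (16 clusters, 13226 nuclei). The reverse ratio gave the glutamate-transporter clusters (18 clusters, 15049 nuclei). Another 5 clusters of 7261 nuclei were mixed by this rule, and 4 clusters of 1629 nuclei were set aside because their top 10 genes held more markers of another cell type than neuron markers and members. One of these, of 589 nuclei led by Gm36431, Ust and Fgf10, was set aside for 1 such gene, and its neuron-list level was 0.95 times that of the other clusters. Since the 6 genes defined the sides, their levels on their own side describe the classes and are not tested against the other side.

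Slc17a6 was the one vesicular glutamate transporter with substantial counts. In glutamate-transporter clusters it had 0.682 and 0.736 UMIs per nucleus in ImP and 0.972 and 0.799 in vehicle libraries. In GABA-gene clusters it had 0.108 and 0.116 UMIs per nucleus in ImP and 0.0902 and 0.0891 in vehicle libraries. With ImP the own-side level was thus lower and the opposite-side level higher in both libraries, with no overlap between the groups in either. Scaled to counts per 1000000 UMIs (CPM), the own-side levels of Slc17a6 came to 176 and 186 CPM in ImP and 185 and 180 CPM in vehicle libraries, with overlapping groups. Where nuclei are shallower, as they were with ImP, a level equal per nucleus comes out higher in CPM. The opposite-side levels came to 30.3 and 32.5 CPM in ImP and 19.3 and 21.8 CPM in vehicle libraries, which did not overlap. How many of all genes lay apart between the groups was not counted, so this and like statements below are descriptions. In UMIs per nucleus, Slc17a6 in GABA-gene clusters stood at 15.8% of its own-side level in both ImP libraries and at 9.28% and 11.2% in vehicle libraries.

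Slc17a8, the transporter of small co-releasing populations, had 53 and 43 UMIs over all Snhg11 nuclei of the ImP libraries and 72 and 40 UMIs in those of the vehicle libraries. Slc17a7, the cortical transporter, had 4 and 6 UMIs in ImP and 10 and 6 in vehicle libraries. Both are near their counting limits, and over all Snhg11 nuclei the groups overlapped for Slc17a8 and met at 6 UMIs for Slc17a7. Per nucleus, the highest Slc17a8 levels were 0.0917 UMIs in the set-aside cluster led by Gm36431, Ust and Fgf10 and 0.0887 in a glutamate-transporter cluster led by Gm19303, Gm20752 and Prkch, which also had the highest Slc17a7, at 0.0565. The cluster led by Gm19303 held 25 and 0 nuclei in ImP and 96 and 3 in vehicle libraries, so it is mostly the library vehicle 1. The cluster led by Gm36431 had 0.745 UMIs of Slc17a6 per nucleus, and its Slc17a8 stood at 19.3 and 15.7 CPM in ImP and 34.1 and 30.4 CPM in vehicle libraries. These groups did not overlap. The cluster held 149 and 188 nuclei in ImP and 114 and 138 in vehicle libraries. Slc17a8 there had 0.0671 and 0.0532 UMIs per nucleus in ImP and 0.158 and 0.116 in vehicle libraries. These counts are low, no interval was made for them, and the cluster was picked after its values were seen. The cluster also had the highest share of nuclei with both sides of all clusters, 34 of 522 (6.51%) after thinning to 2000 UMIs. That was 1.22 times the product of the separate shares. The exact 95% interval of the share, 4.55% to 8.98%, held the 6.06% of the next-highest cluster, led by Gm20757.

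Slc32a1, which loads GABA into vesicles, had 0.221 and 0.266 UMIs per nucleus in GABA-gene clusters of the ImP libraries and 0.321 and 0.307 in those of the vehicle libraries. In glutamate-transporter clusters it had 0.0771 and 0.0921 UMIs per nucleus in ImP and 0.0721 and 0.0738 in vehicle libraries. In CPM its opposite-side level was 19.9 and 23.2 in ImP and 13.7 and 16.6 in vehicle libraries. Both ImP libraries lay above both vehicle libraries there, and below them in UMIs per nucleus on the own side. The opposite-side level of Slc32a1 was the closest of the 4 genes to its own side, at 34.8% and 34.7% of it per nucleus in ImP and 22.4% and 24% in vehicle libraries.

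Gad1, one of the decarboxylases, had 0.397 and 0.373 UMIs per nucleus in GABA-gene clusters of the ImP libraries and 0.527 and 0.428 in those of the vehicle libraries. In glutamate-transporter clusters it had 0.0685 and 0.0742 UMIs per nucleus in ImP and 0.0638 and 0.0674 in vehicle libraries, or 17.7 and 18.7 CPM in ImP and 12.1 and 15.2 CPM in vehicle libraries. The opposite-side groups did not overlap on either scale. Gad2, the other decarboxylase, had 0.894 and 0.957 UMIs per nucleus on its own side in ImP and 1.19 and 1.04 in vehicle libraries. On the glutamate side Gad2 had 0.167 and 0.171 UMIs per nucleus in ImP and 0.165 and 0.158 in vehicle libraries, which is 43.2 and 43.2 CPM in ImP and 31.4 and 35.7 CPM in vehicle libraries. The ImP values of Gad2 lay above the vehicle values on both scales, by less in UMIs per nucleus than in CPM.

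**Figure D1:**
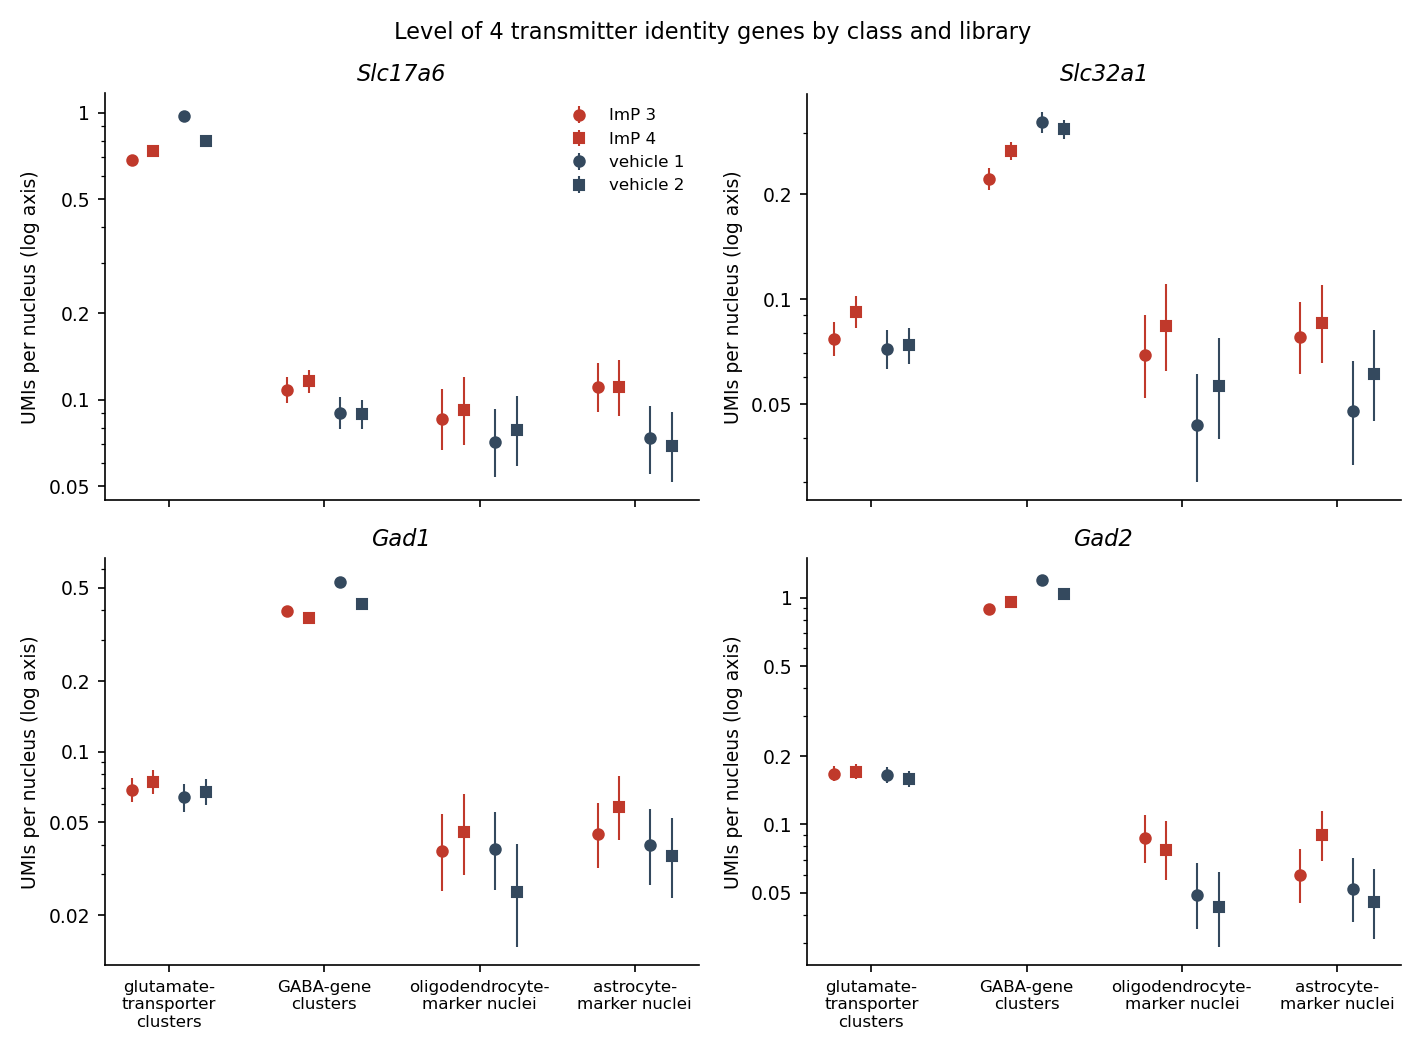
Mean UMIs per nucleus (log axes) of Slc17a6, Slc32a1, Gad1 and Gad2 by class and library, with exact Poisson 95% intervals. In the own-side class every ImP point lies below every vehicle point, for example 0.682 and 0.736 in ImP and 0.972 and 0.799 in vehicle libraries for Slc17a6, while in the opposite class the ImP points lie above.

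How the opposite-side level compares with RNA free in the suspension was read from glial nuclei, which should make none of these transcripts. Oligodendrocyte-marker nuclei (595 to 793 per library) had a median of 1390 to 1515 UMIs and astrocyte-marker nuclei (724 to 920) a median of 1405 to 1617, against 3236.5 to 4224 UMIs in GABA-gene and 3504 to 4622.5 in glutamate-transporter clusters. The intervals below cover counting error only.

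Slc17a6 in oligodendrocyte-marker nuclei had 0.0858 and 0.0924 UMIs per nucleus in ImP and 0.0713 and 0.0786 in vehicle libraries. In astrocyte-marker nuclei it had 0.111 and 0.110 UMIs per nucleus in ImP and 0.0733 and 0.0692 in vehicle libraries. The GABA-gene clusters were thus close to both kinds of glia. Their ratio to oligodendrocyte-marker nuclei was 1.26 and 1.26 in ImP and 1.26 and 1.13 in vehicle libraries, and to astrocyte-marker nuclei 0.975 and 1.05 in ImP and 1.23 and 1.29 in vehicle libraries. The 95% interval of each of these Slc17a6 ratios included 1, with each library taken alone. Every ratio to oligodendrocyte-marker nuclei nevertheless lay above 1, while those to astrocyte-marker nuclei lay on both sides of it. An interval over the libraries together was not made.

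Slc32a1 stood nearly as close to glia, except in vehicle 1. In glutamate-transporter clusters it was 1.11 and 1.10 times its level in oligodendrocyte-marker nuclei in ImP and 1.65 and 1.31 times in vehicle libraries, and the interval excluded 1 in vehicle 1 (1.15 to 2.46). Against astrocyte-marker nuclei the Slc32a1 ratio was 0.985 and 1.08 in ImP and 1.50 and 1.20 in vehicle libraries. That interval too excluded 1 in vehicle 1 (1.05 to 2.20). For Gad1 the ratio was 1.81 and 1.64 in ImP and 1.67 and 2.67 in vehicle libraries, and all of these intervals lay above 1. Against astrocyte-marker nuclei the Gad1 interval lay above 1 in ImP 3 and both vehicle libraries, and held 1 in ImP 4 (0.924 to 1.81). Gad2 was the gene farthest above glia. Its ratio to oligodendrocyte-marker nuclei was 1.92 and 2.21 in ImP and 3.38 and 3.68 in vehicle libraries, and to astrocyte-marker nuclei 2.80 and 1.91 in ImP and 3.18 and 3.50 in vehicle libraries. Each of these Gad2 intervals lay above 1, and the ratios were lower in both ImP libraries than in both vehicle libraries. Gad2 in oligodendrocyte-marker nuclei itself was 0.0870 and 0.0773 UMIs per nucleus in ImP and 0.0489 and 0.0430 in vehicle libraries.

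The proportion of Slc17a6 to Gad2 UMIs differed between oligodendrocyte-marker nuclei and the libraries as a whole. It was 0.986 and 1.20 in oligodendrocyte-marker nuclei of the ImP libraries and 1.46 and 1.83 in those of the vehicle libraries, while over all kept nuclei it was 0.822 and 0.767 in ImP and 0.864 and 0.770 in vehicle libraries. Relative to Gad2, Slc17a6 was therefore higher in oligodendrocyte-marker nuclei than in all nuclei together, in 4 of 4 libraries.

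The members' opposite-side levels were set beside 4 neuropeptide genes that few neurons make and whose transcripts were found in every class. Pmch, melanin-concentrating hormone, had 0.906 and 1.03 UMIs per nucleus in GABA-gene clusters and 0.866 and 1.07 in oligodendrocyte-marker nuclei of the ImP libraries. In vehicle libraries Pmch had 0.653 and 0.639 UMIs per nucleus in GABA-gene clusters and 0.700 and 0.593 in oligodendrocyte-marker nuclei. Its level was thus nearly the same in neurons and glia of 1 library, and higher in both ImP libraries. Over the GABA-gene, glutamate-transporter, oligodendrocyte-marker and astrocyte-marker classes, the mean of the ImP libraries over that of the vehicle libraries was 1.50 to 1.61 for Pmch and 1.40 to 1.68 for Hcrt (hypocretin). It was 1.18 to 1.62 for Avp (vasopressin) and 1.41 to 1.99 for Oxt (oxytocin). The same ratio for the members on the opposite side was 1.25 for Slc17a6, 1.16 for Slc32a1, 1.09 for Gad1 and 1.05 for Gad2. On their own side it was 0.801 for Slc17a6, 0.776 for Slc32a1, 0.806 for Gad1 and 0.829 for Gad2, close to the 0.760 and 0.750 of Snhg11 in the neuronal classes. In oligodendrocyte-marker nuclei it was 1.19 for Slc17a6, 1.53 for Slc32a1, 1.31 for Gad1 and 1.79 for Gad2. Own-side levels were thus lower with ImP, as depth was, while opposite-side and glial levels were higher, as the peptide transcripts were. What part free RNA had in each was not tested.

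**Figure D2:**
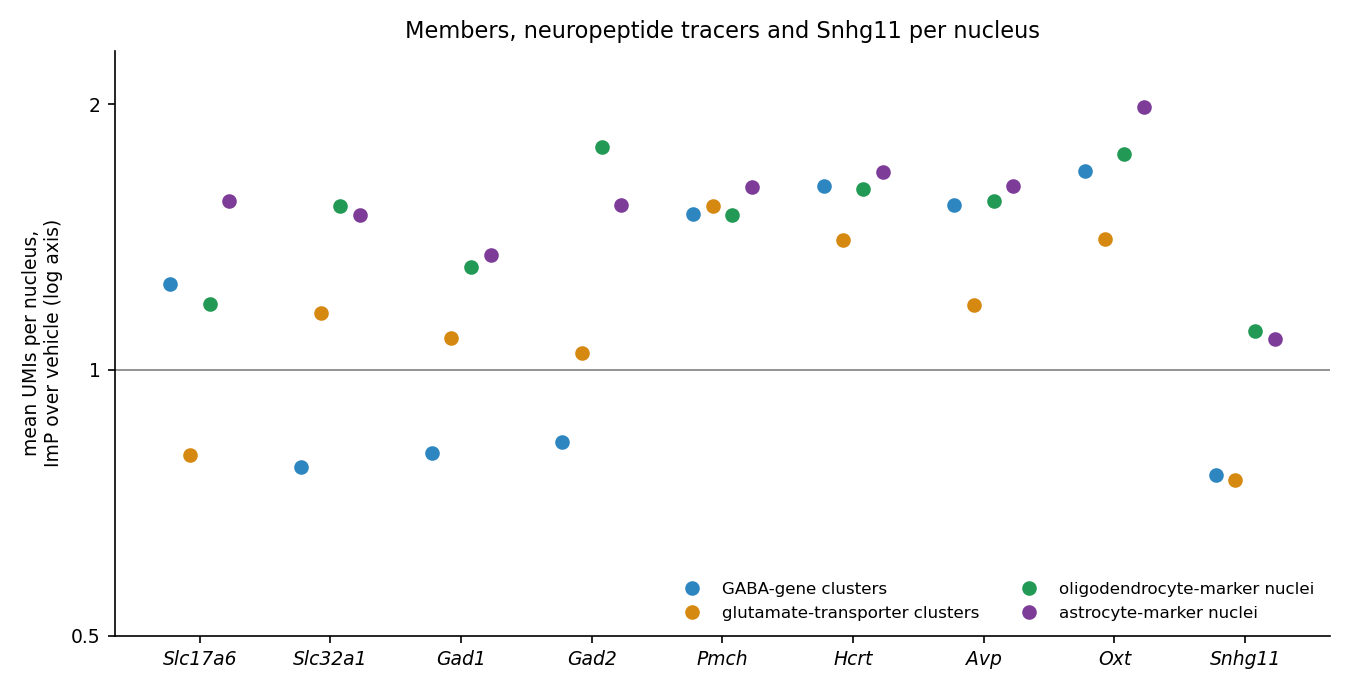
Mean UMIs per nucleus of the ImP libraries over that of the vehicle libraries (log axis) for the 4 members with substantial counts, 4 neuropeptide genes and Snhg11, by class. The members lie between 0.776 and 0.829 on their own side and at 1.05 or more on the opposite side and in glia, and the peptide genes lie at 1.18 or more in all 4 classes.

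ImP was compared with vehicle per gene on counts summed per library and class, with edgeR's quasi-likelihood test over all genes and Benjamini-Hochberg adjustment at 0.05. Its fold changes are on the CPM scale, where a level equal per nucleus comes out higher with ImP, whose neuronal nuclei were shallower. The opposite-side changes of the members were smaller in UMIs per nucleus, and what part depth had in them was not tested. Over all Snhg11 nuclei no member passed, where 0.00489% of 20447 genes did. The changes of the 4 abundant members were small there, and the largest was 0.11 on the log2 scale for Slc32a1, whose levels were 40.3 and 48.7 CPM in ImP and 39.0 and 44.2 CPM in vehicle libraries. The edgeR adjusted p of the 5 members tested ran from 0.826 to 0.922. Slc17a7 did not pass the filter on low counts in any class.

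In GABA-gene clusters none of the 5 members tested passed, where 0.023% of 17403 genes did. Slc17a6 had a log2 fold change of 0.63 ± 0.11 (SE, n = 2 each) with an edgeR adjusted p of 0.0963 and a 95% interval of 0.38 to 0.89. With DESeq2 the same comparison passed for Slc17a6 (adjusted p = 0.0334), where 162 of 17403 genes did. The library names carry a prefix of 111 or 113 whose meaning is not given, and within each prefix the ImP library was the higher one, at 30.3 against 19.3 CPM (111) and 32.5 against 21.8 CPM (113). The own-side genes lay near 0 on the log2 scale, at 0.05 for Gad2, 0.01 for Gad1 and -0.05 for Slc32a1, with edgeR adjusted p-values of 0.930 to 0.985. The oligodendrocyte list moved the same way as Slc17a6 in these clusters, with a summed level of 426 and 388 CPM in ImP and 245 and 304 CPM in vehicle libraries, and its part was not tested.

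In glutamate-transporter clusters no member passed, and neither did any of the 18147 genes (0% by edgeR, with 1361 at an unadjusted p under 0.05 and 153 called by DESeq2). The 3 GABA-side genes had positive log2 fold changes and missed the threshold. With the library name prefix as a block, Slc32a1 and Gad2 passed (edgeR adjusted p = 0.0160 and 0.0252), where 511 of 18147 genes did. The Slc32a1 change was positive in all 15 alternatives. Slc32a1 had a log2 fold change of 0.53 ± 0.14 with an edgeR adjusted p of 0.266. Gad1 had 0.44 ± 0.14 with an edgeR adjusted p of 0.401, and Gad2 0.38 ± 0.10 with an edgeR adjusted p of 0.255 (SE, n = 2 each). Slc17a6, on its own side, had 0.01 ± 0.07 with an edgeR adjusted p of 0.993. The oligodendrocyte list stood at 375 and 352 CPM in ImP and 214 and 284 CPM in vehicle libraries of these clusters, and its part was not tested.

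The difference between the effects in the GABA-gene and the glutamate-transporter clusters was tested in 1 fit with the library as a block. It passed for 2 of 5 members tested, where 0.0379% of 18476 genes passed (7 genes, the others being Avp, Trh, Gh, Kcnh8 and Adcyap1). The ImP effect on Slc17a6 was higher in GABA-gene clusters by 0.63 ± 0.09 on the log2 scale (edgeR adjusted p = 0.00160). For Slc32a1 the difference was -0.57 ± 0.10 (edgeR adjusted p = 0.0173), so its effect was higher in glutamate-transporter clusters. Gad2 at -0.33 ± 0.07 and Gad1 at -0.42 ± 0.11 had the same sign as Slc32a1 and missed the threshold, with edgeR adjusted p-values of 0.225 and 0.632. DESeq2 called no gene in this comparison, with 816 genes at an unadjusted edgeR p under 0.05. Without the library vehicle 1, the difference for Slc17a6 was 0.53 and that for Slc32a1 -0.50 on the log2 scale, and neither passed. Both compare a class in which the gene is abundant with one in which it is near its level in glia, though Slc32a1 lay above both glial classes in vehicle 1.

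In oligodendrocyte-marker nuclei none of 10354 genes passed (0% by edgeR, 980 at an unadjusted p under 0.05, 1 by DESeq2), and in astrocyte-marker nuclei none of 11226 (0% by edgeR, 1153 at an unadjusted p under 0.05, 1 by DESeq2). The members had positive log2 fold changes in both. In oligodendrocyte-marker nuclei these were 0.89 for Gad2, 0.66 for Slc32a1, 0.42 for Gad1 and 0.30 for Slc17a6, with edgeR adjusted p-values of 0.358 to 0.700. In astrocyte-marker nuclei they were 0.77 for Slc17a6, 0.74 for Gad2, 0.71 for Slc32a1 and 0.55 for Gad1, with edgeR adjusted p-values of 0.137 to 0.515. With the prefix as a block, Gad2 passed in oligodendrocyte-marker and Slc17a6 in astrocyte-marker nuclei (edgeR adjusted p = 0.0107 and 0.0232). Under that setting 424 of 10354 genes passed in the first class and 303 of 11226 in the second. Over 11 alternatives in astrocyte-marker nuclei, the log2 fold change ran from 0.45 to 0.99 for Gad2 and from 0.41 to 1.01 for Slc32a1.

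**Figure D3:**
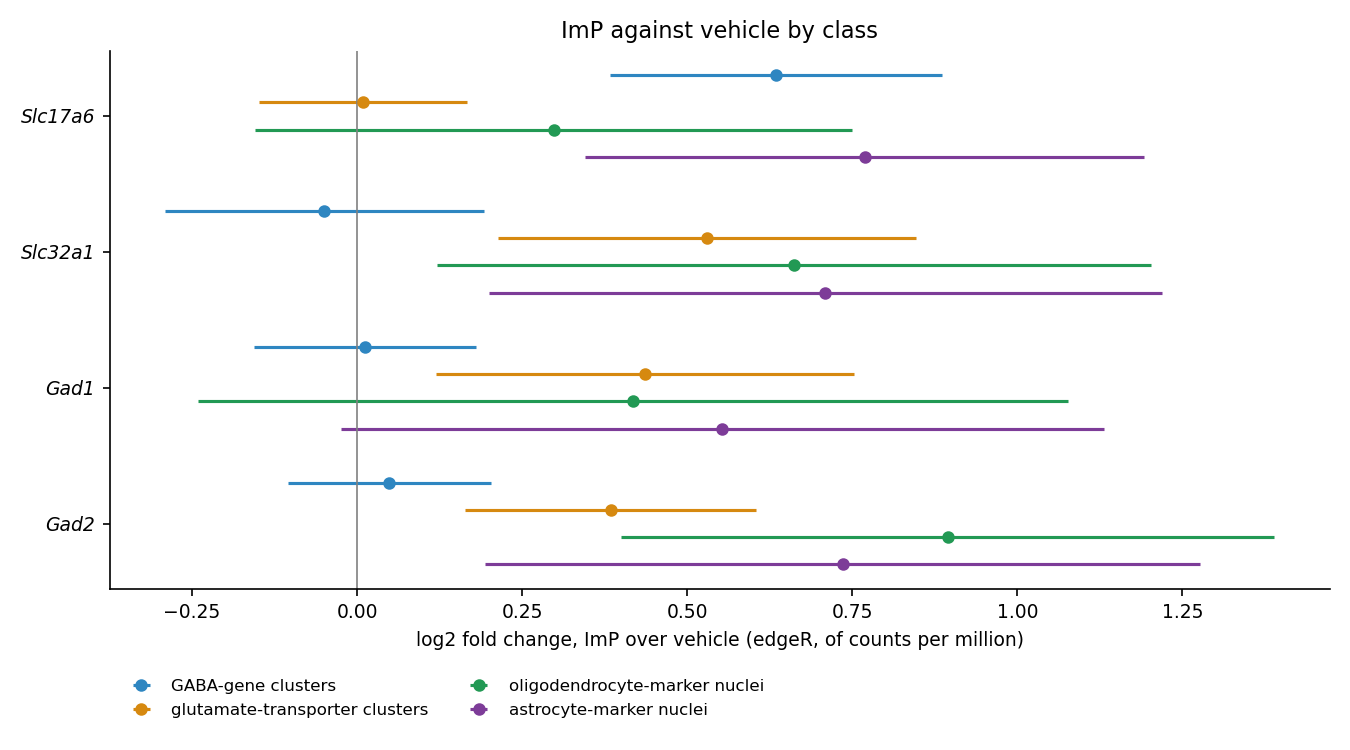
Log2 fold change of ImP over vehicle (edgeR on the CPM scale, 95% intervals, n = 2 libraries each) for 4 members in GABA-gene clusters, glutamate-transporter clusters and the 2 glial classes. On the opposite side the changes in UMIs per nucleus were smaller. The own-side values lie between -0.05 and 0.05, the opposite-side values between 0.38 and 0.63, and the glial values between 0.30 and 0.89.

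Co-detection within a nucleus was counted after thinning each Snhg11 nucleus to 2000 UMIs, which left out 1898 and 2223 shallower nuclei in ImP and 746 and 1455 in vehicle libraries. Any UMI of Slc32a1, Gad1 or Gad2 together with any UMI of Slc17a6, Slc17a7 or Slc17a8 was found in 3.69% and 3.57% of nuclei in ImP and 2.63% and 2.85% in vehicle libraries. The means were 3.63% ± 0.08 with ImP and 2.74% ± 0.15 with vehicle (SD, n = 2 each), and the groups did not overlap. The difference of 0.890 percentage points had an exact two-sided permutation p of 0.333, the smallest that 2 against 2 libraries can give. Without thinning, the shares were 9.07% and 9.15% in ImP and 9.28% and 8.28% in vehicle libraries, and the groups overlapped.

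The share of nuclei with both sides was below the product of the 2 separate shares. The observed share over that product was 0.618 and 0.563 in ImP and 0.484 and 0.503 in vehicle libraries. Within the GABA-gene clusters this ratio was close to 1, at 1.13 and 0.995 in ImP and 0.909 and 0.938 in vehicle libraries, with shares of 3.70% and 3.61% in ImP and 1.92% and 2.19% in vehicle libraries. Within the glutamate-transporter clusters it was 0.819 and 0.889 in ImP and 0.999 and 0.952 in vehicle libraries, with shares of 3.49% and 3.98% in ImP and 3.15% and 3.35% in vehicle libraries. Cluster by cluster, the ratio ran from 0.595 to 1.32 over 15 GABA-gene clusters (median 1.08) and from 0.557 to 1.79 over 18 glutamate-transporter clusters (median 0.906). The difference in share between ImP and vehicle was 1.60 percentage points in GABA-gene clusters and 0.481 in glutamate-transporter clusters, each with an exact permutation p of 0.333.

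**Figure D4:**
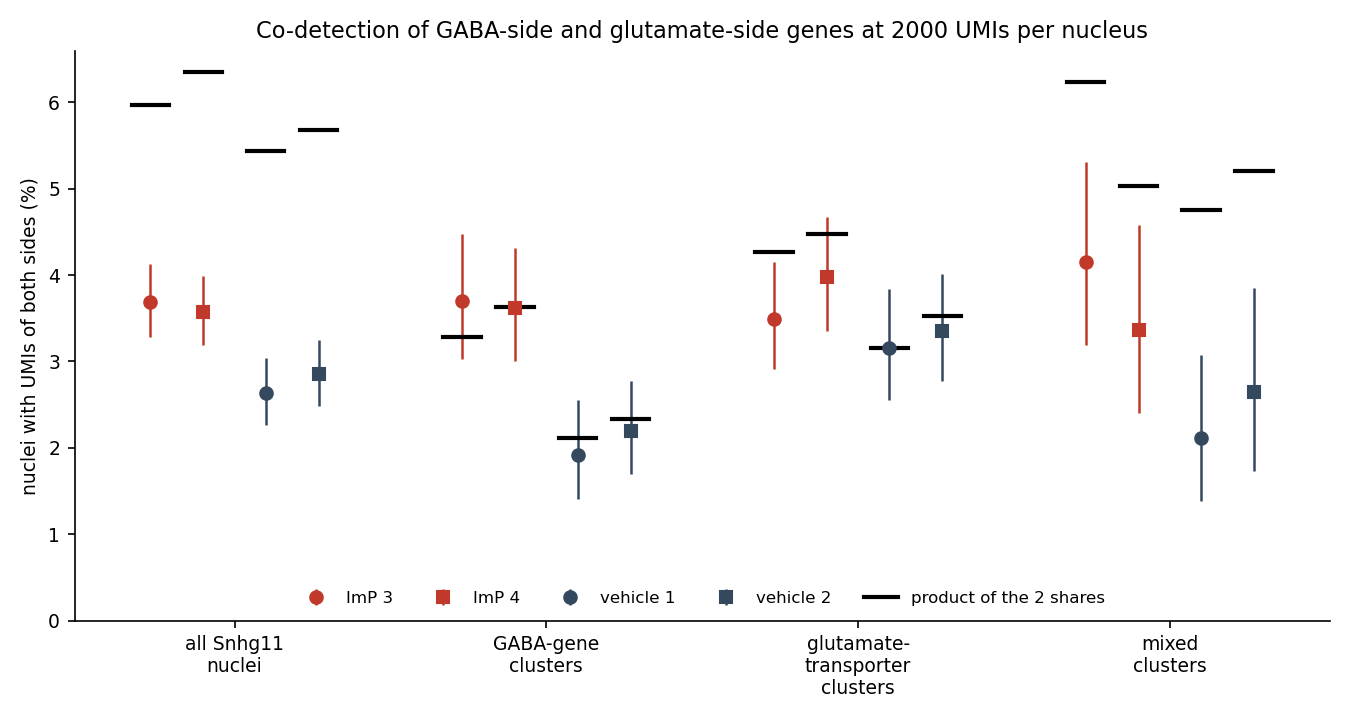
Percent of nuclei with UMIs of both sides at 2000 UMIs per nucleus, by class and library, with exact binomial 95% intervals; black bars give the product of the 2 separate shares. Among all Snhg11 nuclei the points (3.69% and 3.57% in ImP, 2.63% and 2.85% in vehicle libraries) lie well under the bars, and in the GABA-gene clusters they lie near them.

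Among pairs of Slc17a6, Slc32a1, Gad1 and Gad2, the ratio of observed to product was below 1 across the sides and above 1 within the GABA side. Pairs with Slc17a7 or Slc17a8 were found in at most 8 nuclei of a library after thinning and are not read. For Slc17a6 with Slc32a1 it was 0.73 and 0.75 in ImP and 0.49 and 0.54 in vehicle libraries. For Slc17a6 with Gad2 it was 0.53 and 0.44 in ImP and 0.42 and 0.46 in vehicle libraries. Gad1 with Gad2, the enzymes of one pathway, stood at 1.59 and 1.46 in ImP and 1.77 and 1.69 in vehicle libraries. The pair Slc17a6 and Slc32a1, the 2 vesicular transporters, was detected together in 1.02% and 1.22% of nuclei in ImP and 0.669% and 0.815% in vehicle libraries.

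Higher demands on each nucleus left few cases. At least 2 UMIs on each side were found in 0.151% and 0.024% of thinned nuclei in ImP and 0.058% and 0.066% in vehicle libraries, and these groups overlapped. Snhg11 nuclei with 4 or more UMIs of the 6 genes (762 and 854 in ImP, 1030 and 910 in vehicle libraries) were counted without thinning, so depth was not matched. Of these nuclei, 22.7% and 23.2% in ImP and 16.6% and 18.4% in vehicle libraries drew 25% to 75% of those UMIs from the GABA side. Most held GABA-side UMIs alone, 57.2% and 58.3% in ImP and 59.9% and 61.6% in vehicle libraries. Among nuclei removed as likely doublets, co-detection after thinning stood at 2.76% and 3.78% in ImP and 2.14% and 2.80% in vehicle libraries, above the kept nuclei in ImP 4 only. Without thinning it was 10.9% and 11.2% in ImP and 13.7% and 12.5% in vehicle libraries, above the kept nuclei in 4 of 4.

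The 5 mixed clusters fell into different kinds. The cluster with Meis2 and Grik1 among its leading genes held 4425 nuclei and, pooled over libraries, 0.429 UMIs of Slc17a6 and 0.904 of Gad2 per nucleus. Its neuron-list level was 1.05 times that of the other clusters. Yet its nuclei were not double-positive more often than the shares allow: 146 of 4144 thinned nuclei (3.52%) held both sides, 0.575 of the product of 15% with a glutamate-side and 40.9% with a GABA-side UMI. At a clustering resolution of 2 in place of 1, the mixed clusters together held 4635 nuclei in place of 7261. They held 8016 with no doublet removal, 3989 at 10 or more Snhg11 UMIs and 1516 at 5 or more. The last 2 counts are below the 4425 nuclei of this cluster alone, so its place among the mixed clusters depends on the setting. Whether the cluster joins neurons of both kinds or holds neurons with both sets of genes was not tested.

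The mixed clusters led by Aspa and Sec14l5 (1234 nuclei), Atp13a4 and Etnppl (1166) and Fndc3c1 and Col23a1 (332) carried other cells' markers. By ratio, their leading marker lists were the oligodendrocyte list at 29.3 times its level in other clusters, the astrocyte list at 19.6 times and the endothelial list at 18.4 times. In the cluster led by Fndc3c1 the endothelial list was low, at 116 CPM against 6.32 CPM in other clusters. Its astrocyte list stood at 1925 CPM, 2.34 times the level in other clusters, so its kind is not settled by these lists. The neuron-list levels of the 3 clusters were 0.22, 0.23 and 0.37 times those of other clusters. Both sides were low in these 3 clusters, with 0.111, 0.0892 and 0.108 UMIs of Slc17a6 and 0.0640, 0.0695 and 0.0904 of Gad2 per nucleus.

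The last mixed cluster, of 104 nuclei led by Mup6, Igf1, Tacr3 and Pmch, was set apart by an uneven GABA side. Gad1 had 0.667 and 0.774 UMIs per nucleus in its ImP nuclei and 0.656 and 1.14 in its vehicle nuclei. Pooled, it held 0.760 UMIs of Gad1 and 0.481 of Slc17a6 per nucleus, with 0.144 of Slc32a1 and 0.183 of Gad2. Gad2 lay within its range over glutamate-transporter clusters (0.0631 to 0.380) and Slc32a1 at the low end of its range over GABA-gene clusters (0.138 to 0.410). In UMIs per nucleus, Gad1 exceeded its level in all 15 GABA-gene clusters of 100 or more nuclei (0.269 to 0.732). That comparison is not scaled for depth, which was 7256 UMIs per nucleus here and 2973 to 4968 in those 15 clusters. The mean over Slc32a1, Gad1 and Gad2 was 49.9 CPM here, against 98.9 to 184 CPM in those 15 clusters. Both sides were found in 5 of 102 of its nuclei, 1.58 times the product, with an exact 95% interval of the share of 1.61% to 11.1%.

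**Figure D5:**
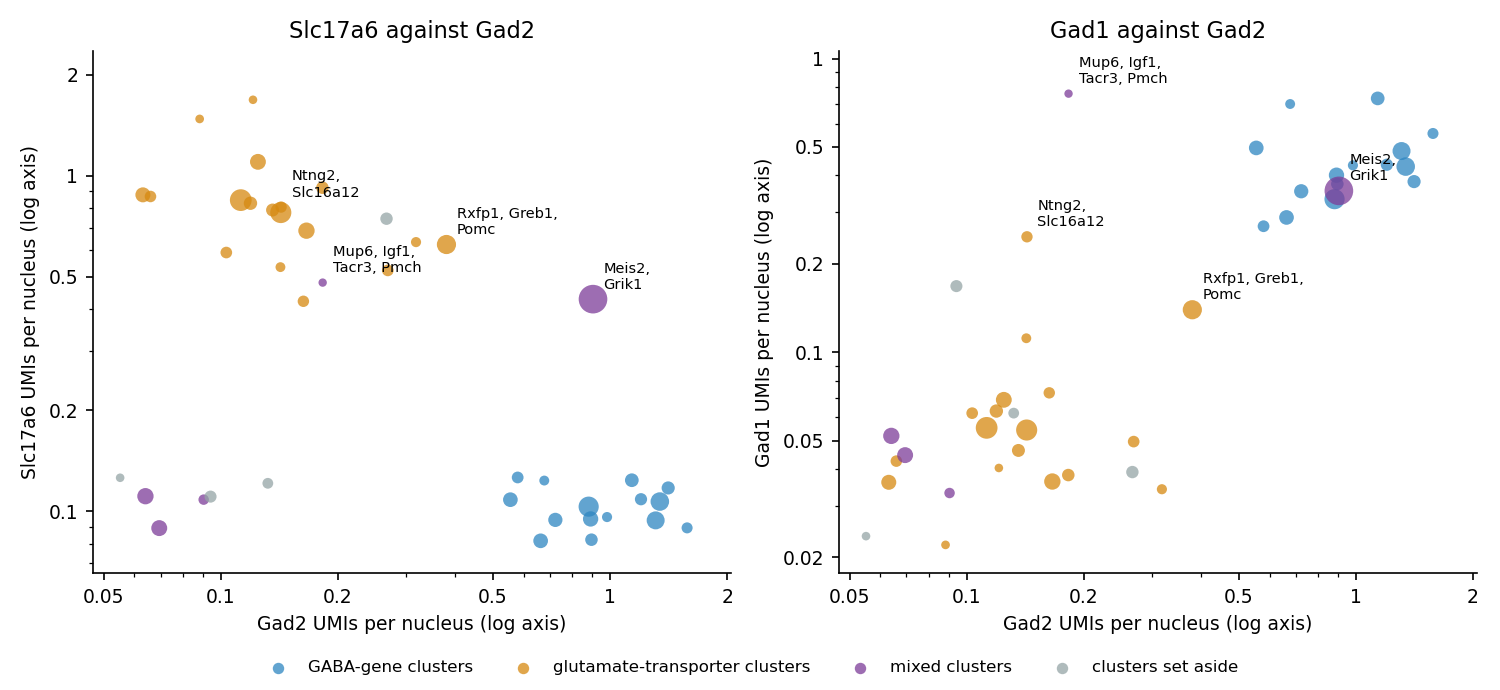
Pooled UMIs per nucleus (log axes) of Slc17a6 against Gad2 (left) and of Gad1 against Gad2 (right), 1 point per cluster, with area by its number of nuclei and colour by side. The cluster marked by Meis2 and Grik1 is high for both Slc17a6 (0.429) and Gad2 (0.904), and the cluster led by Mup6 and Igf1 has Gad1 at 0.760 with Gad2 at 0.183.

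Across clusters the opposite-side genes differed in how evenly they were spread. Slc17a6 ran from 0.0817 to 0.126 UMIs per nucleus over the 15 GABA-gene clusters (median 0.103), a narrow band beside 0.423 to 1.69 over the 18 glutamate-transporter clusters. In CPM, the GABA-gene clusters with the most glutamate-transporter counts were led by Mbnl3, Gnrh1 and Lepr, at 37.9 CPM, by 9330185C12Rik, with Rgs16 and Vipr2 among its leading genes, at 37.3 CPM, and by Lef1 and Sox14, at 36.8 CPM, all summed over the 3 Slc17a genes. In UMIs per nucleus the order differed, with 0.126, 0.112 and 0.127 in these clusters and 0.135 in one led by Atp8b1 and Gal. Slc32a1 ran from 0.0403 to 0.108 UMIs per nucleus over the glutamate-transporter clusters (median 0.0800), beside 0.138 to 0.410 over the GABA-gene clusters.

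Gad2 and Gad1 were less even on the glutamate side, with Gad2 at 0.0631 to 0.380 (median 0.139) and Gad1 at 0.0221 to 0.247 (median 0.0519) UMIs per nucleus. Gad2 was highest in the cluster led by Rxfp1, Greb1, Esr1, Spag16 and Pomc, where it had 99.3 and 103 CPM in ImP and 106 and 97.5 CPM in vehicle libraries. The groups overlapped, in contrast to the glutamate side as a whole. Slc17a6 in the same cluster had 162 and 166 CPM in ImP and 186 and 153 CPM in vehicle libraries, and 74 of 1542 thinned nuclei (4.80%) held both sides, 0.742 of the product. Gad1 was highest in another cluster, led by Gm20757, Ntng2, Slc16a12, Lef1 and Synpr, with 70.7 and 60.1 CPM in ImP and 47.0 and 67.7 CPM in vehicle libraries, which overlapped. There 24 of 396 nuclei (6.06%) held both sides, 0.914 of the product. The summed level of the 3 GABA-side genes was 160 CPM in the first of these clusters, 118 CPM in the second, and 117 CPM in the next, led by Agtr1a and Tns1.

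The direction with ImP was counted cluster by cluster in CPM, as a description, since clusters of 1 library share their free RNA. For Slc17a6 the mean was higher with ImP in 13 of 15 GABA-gene clusters and in 8 of 18 glutamate-transporter clusters. For Gad2 it was higher in 15 of 18 glutamate-transporter and 10 of 15 GABA-gene clusters. For Slc32a1 the counts were 15 of 18 glutamate-transporter and 8 of 15 GABA-gene clusters, and for Gad1 13 of 18 and 6 of 15. Both ImP libraries lay above both vehicle libraries for Slc17a6 in 10 of the 15 GABA-gene clusters and below them in 0. The same counts were not made over all genes, so none of these is read as a result about the members.

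Over 38 clusters with 20 or more nuclei in every library, the levels of Slc17a6, Slc32a1, Gad1 and Gad2 varied along 1 axis, while Slc17a7 and Slc17a8 had r between -0.14 and 0.13 with every other member. Pearson's r of log2(CPM + 1) between Slc17a6 and the GABA-side genes was -0.91 for Slc32a1, -0.88 for Gad1 and -0.84 for Gad2. Among the GABA-side genes it was 0.87 for Slc32a1 with Gad1, 0.87 for Slc32a1 with Gad2 and 0.85 for Gad1 with Gad2. These are descriptions, since all clusters share the 4 libraries and the non-neuronal clusters are among them.

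The genes most like Slc17a6 over these clusters were Bdnf (r = 0.85), a neurotrophin, Adcyap1 (0.82), which encodes the peptide PACAP, Tmem163 (0.81), Chst8 (0.81) and Cacna2d1 (0.78), a calcium channel subunit. Those most like Gad2 were Gm14204 (0.90), Dlx6os1 (0.83), a non-coding RNA of the Dlx5 and Dlx6 locus, Nrxn3 (0.81), a presynaptic adhesion molecule, Gad1os (0.80) and Ecel1 (0.72). Gm14204, Dlx6os1, Gad1os and Nrxn3 were also among the 5 nearest to Gad1 and to Slc32a1, with Isl1 (0.71) next to Gad1 and Dlx1as (0.73) next to Slc32a1. Gad1os overlaps the Gad1 locus by name, and how the counting used strand is not given in the sources used here, so reads of the pair cannot be told apart. For Slc17a8 the nearest gene was Mob3b (0.56) and for Slc17a7 Ebf2 (0.62), both at counts too low to read as a finding.

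Of 19 genes of GABA and glutamate handling, 18 were tested over Snhg11 nuclei, and 13 were higher and 5 lower with ImP, with a median log2 fold change of 0.12, beside -0.01 over all genes. No gene of this list passed in any class. The smallest p-values belonged to the glutamate transporters Slc1a2 (log2 0.32) and Slc1a3 (0.65 in GABA-gene and 0.60 in glutamate-transporter clusters), glutamine synthetase Glul (0.57, 0.44 and 0.52 over Snhg11 nuclei, GABA-gene and glutamate-transporter clusters), the GABA transporter Slc6a11 (0.41 over Snhg11 nuclei and 0.44 in glutamate-transporter clusters) and the aminotransferase Got1 (0.27 in GABA-gene clusters), with edgeR adjusted p-values of 0.114 to 0.359. Slc1a2, Slc1a3, Glul and Slc6a11 are typical of astrocytes. The astrocyte list summed to 896 and 871 CPM in Snhg11 nuclei of the ImP libraries and 778 and 768 CPM in those of the vehicle libraries, and its part was not tested.

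No gene of the lists for other transmitters, the GABA lineage or the glutamate lineage passed either. In GABA-gene clusters 3 of 10 GABA-lineage genes were higher and 7 lower, with a median log2 fold change of -0.09 beside a median near 0 over all genes. The nearest to the threshold were the transcription factors Lhx6 (0.50) and Dlx2 (-0.23) and the non-coding RNA Dlx6os1 (-0.15), with edgeR adjusted p-values of 0.725 to 0.784. In the glutamate-transporter clusters 7 of the 9 GABA-lineage genes tested were higher and 2 lower, with a median of 0.31. Sp9, another GABA-lineage factor, had -0.63 there and Dlx6 0.65, with edgeR adjusted p-values of 0.506 and 0.801. Among glutamate-lineage genes Barhl1 had 1.02 over Snhg11 nuclei and Tbr1 0.41 there and 0.72 in glutamate-transporter clusters (edgeR adjusted p = 0.599, 0.782 and 0.662). Fezf1 had 0.89 in GABA-gene clusters (edgeR adjusted p = 0.720). Hdc, which makes histamine, had 0.28 over Snhg11 nuclei, 0.28 in GABA-gene and 0.46 in glutamate-transporter clusters, and Ddc, an enzyme of monoamine synthesis, -0.26 in GABA-gene clusters, with edgeR adjusted p-values of 0.456 to 0.830. Th, of dopamine synthesis, had 0.36 over Snhg11 nuclei (edgeR adjusted p = 0.796). The monoamine transporter gene Slc18a1 had -0.49 in GABA-gene clusters and Slc18a2 -0.15 in glutamate-transporter clusters (edgeR adjusted p = 0.783 and 0.886).

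In the list of 10 tracers, which holds 8 hypothalamic peptide genes and the pituitary hormone genes Gh and Prl, all 10 were higher with ImP in each of the GABA-gene, glutamate-transporter, oligodendrocyte-marker and astrocyte-marker classes, with median log2 fold changes of 0.91, 0.71, 0.74 and 0.92. Within a class, the tracers that passed were Pmch (log2 0.90, edgeR adjusted p = 0.0469) and Hcrt (1.01, edgeR adjusted p = 0.0498), both in GABA-gene clusters, where their transcripts stood at their level in glia. In the difference of effects Avp, Trh and Gh passed as well. Gh and Prl were high in the library ImP 4 alone, with Gh at 23.5 and 1583 CPM in Snhg11 nuclei of the ImP libraries and 26.7 and 4.15 CPM in those of the vehicle libraries. The list was chosen with earlier results of these libraries known and is not independent evidence of its direction.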

How the data were processed

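Nuclei were isolated with a kit from snap-frozen hypothalami and sequenced as 10x 3′ libraries, per the labels' protocols. The authors deposited whole-number UMI counts per gene and barcode, and the submitters' processing notes list Cell Ranger 8.0.1, GRCm39 and Seurat 5.0.0. How introns and strand were treated, and with which annotation, is not given in the sources used here. From these counts, nuclei with at least 500 genes and at most 5% mitochondrial UMIs were kept, and the highest doublet scores of each library (9.00% to 13.1% of nuclei, scored against simulated doublets) were removed. Libraries held 48060194 to 51945297 UMIs, and intervals cover counting error only.

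Snhg11 nuclei (3 or more UMIs) were clustered without the 6 members (3000 variable genes, 40 components, 15 neighbours, leidenalg 0.10.2, resolution 1). Sides followed the members' levels with a ratio of 2. Glial nuclei had under 3 Snhg11 UMIs and 10 or more UMIs of the oligodendrocyte or astrocyte list. Counts summed per library and class were tested with edgeR 4.0.16 (R 4.3.3; TMM factors, filterByExpr with a minimum count of 10, quasi-likelihood test, Benjamini-Hochberg at 0.05), ImP over vehicle. DESeq2 1.42.0 and the settings of the closing section were alternatives. Classes by nucleus, in that section, were Snhg11 nuclei with 2 or more UMIs of Slc32a1 or of Slc17a6, in place of clusters. On simulated counts with a common dispersion and 200 well-counted genes changed 4-fold, 200 were recovered in each comparison, with 6 to 11 false calls. Smaller changes, of the size seen for the members, were not simulated. Co-detection used nuclei thinned at random to 2000 UMIs and an exact permutation test over libraries.

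The genes named are the 6 members, the 3 list genes with the smallest p in each neuronal comparison, the 5 genes most correlated with each member over clusters, and the leading genes of clusters that were mixed or highest for the opposite side; clusters highest for Slc17a7 and Slc17a8, and those with the highest Gad1 or Gad2, were named after their values were seen, as were the 4 tracers shown per class. The members and lists were chosen with earlier results of these data known. Some genes that this rule would name are not reported here.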

Additional observations from a re-analysis of the deposited data

Results flagged for a closer look

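For 2 members the ImP effect differed between the GABA-gene and the glutamate-transporter clusters by the test of that difference. For Slc17a6 the difference was 0.63 on the log2 scale (edgeR adjusted p = 0.00160, n = 2 libraries each), with 30.3 and 32.5 CPM in ImP and 19.3 and 21.8 CPM in vehicle libraries in GABA-gene clusters. For Slc32a1 it was -0.57 (edgeR adjusted p = 0.0173), with 19.9 and 23.2 CPM in ImP and 13.7 and 16.6 CPM in vehicle libraries in glutamate-transporter clusters. In both cases the changed class was the one in which the gene was near its level in glia, though Slc32a1 lay above both glial classes in vehicle 1. The 10 tracer genes were higher with ImP in the same classes, and their part was not tested.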

How the results depend on the processing

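Of 28 results for members, recomputed 365 times, 314 kept their direction and their side of the threshold, 9 lost and 18 gained a call, and 24 turned direction, 13 of them not Slc17a8; the cause was not tested. The counts of genes called moved widely. Over Snhg11 nuclei (1 gene) they were 324 with DESeq2, 691 with the library name prefix as a replicate block, and 0 to 542 without 1 library. In GABA-gene clusters (4) they were 162 with DESeq2, 1 with RLE factors, 566 with no filter, 922 with the prefix block, 2 at 5 or more Snhg11 UMIs, 2 at resolution 2, 28 with classes by nucleus, and 4 to 234 without 1 library. In glutamate-transporter clusters (0) they were 153 with DESeq2, 511 with the prefix block, 1 with no doublet removal, 1 at 5 or more and 1 at 10 or more Snhg11 UMIs, 4 with classes by nucleus, and 0 to 343 without 1 library. For the difference of effects (7) they were 0 with DESeq2, 28 with no filter, 12 with no doublet removal, 4 without pituitary nuclei, 2 at 10 or more Snhg11 UMIs, 11 with another seed, 4 at resolution 2, 4 with classes by nucleus, and 1 to 56 without 1 library. In oligodendrocyte-marker nuclei (0) they were 1 with DESeq2, 73 with no filter, 424 with the prefix block, and 6 to 253 without 1 library; in astrocyte-marker nuclei (0) they were 1, 162, 303, and 9 to 344 under the same settings.

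The difference for Slc17a6 passed in 11 of 14 alternatives (log2 0.45 to 0.73) and that for Slc32a1 in 8 of 14 (-0.67 to -0.19); both missed with DESeq2, without vehicle 1 and with classes by nucleus, and Slc32a1 also at 5 or more and 10 or more Snhg11 UMIs and at resolution 2. Slc17a6 in GABA-gene clusters passed in 4 of 15 (0.54 to 0.74). Classes by nucleus are picked by the counts of Slc32a1 or Slc17a6 themselves, so the values of these genes there cannot be read as a change. With classes by nucleus, the GABA-gene class turned to 0.32 for Slc32a1, -0.12 for Gad1 and -0.062 for Gad2. With no doublet removal it was -0.012 for Gad1, and Slc17a6 in glutamate-transporter clusters was -0.0023. The difference for Slc17a8 was 0.31 with no doublet removal, 0.17 without pituitary nuclei, 0.14 at 10 or more Snhg11 UMIs, 0.19 with another seed and 0.23 at resolution 2. Without 1 library, results that turned ran from -0.53 to 0.28 (Slc17a8) and -0.035 to 0.25 (Slc32a1) over Snhg11 nuclei. In GABA-gene clusters they ran from -0.62 to 0.53 (Slc17a8), -0.20 to 0.083 (Slc32a1), -0.029 to 0.050 (Gad1) and -0.012 to 0.11 (Gad2). In glutamate-transporter clusters they ran from -0.035 to 0.053 (Slc17a6) and -0.67 to 0.84 (Slc17a8), and for the difference from -0.30 to 0.11 (Slc17a8). A library left alone in its group is assumed to vary like the others.

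The difference in co-detection was positive under all 13 alternatives, from 0.025 (2 or more UMIs on each side) to 1.40 percentage points (3000 UMIs). The replicate numbers in the titles are not shared between groups and pair no libraries; the library name prefix, whose meaning is not given, pairs 1 ImP with 1 vehicle library and was the block above. It was not run for the difference of effects, which already holds the library. The thresholds of 10 Snhg11 UMIs and of no pituitary list were chosen after seeing the data. With 2 libraries a group, Slc17a7 and Slc17a8 were limited by depth.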

Other observations

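Oligodendrocyte precursor-marker nuclei, 197 to 257 per library and in none of the comparisons, had more Gad1 than oligodendrocyte-marker nuclei. They had 0.121 and 0.0887 UMIs of Gad1 per nucleus in ImP and 0.147 and 0.173 in vehicle libraries, against 0.0378 and 0.0454 in oligodendrocyte-marker nuclei of the ImP libraries and 0.0383 and 0.0252 in those of the vehicle libraries. Gad2 was not above Gad1 there, with 0.0895 and 0.0887 UMIs per nucleus in ImP and 0.0863 and 0.0577 in vehicle libraries. The ratio of Gad1 to Gad2 UMIs was 1.35 and 1 in ImP and 1.71 and 3 in vehicle libraries, while in Snhg11 nuclei it was 0.436 and 0.404 in ImP and 0.429 and 0.418 in vehicle libraries. Microglia-marker nuclei were too few to compare, with 8 and 6 Gad1 UMIs in 94 and 56 nuclei of the ImP libraries and 1 and 4 in 62 and 91 nuclei of the vehicle libraries. The counts behind the precursor values were 12 to 36 UMIs of each gene per library, and they were singled out after they were seen.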
